A study of Sus scrofa with 8 samples.

Results

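Integrins and laminins were followed as a gene family across open chromatin in porcine muscle satellite cells, the stem cells of skeletal muscle. The 37 members are the protein-coding genes of the Sscrofa11.1 RefSeq table whose symbol marks them as an integrin alpha or beta subunit (25 genes) or as a laminin alpha, beta or gamma chain (12 genes), out of 19484 protein-coding genes on chromosomes 1 to 18 and X. Peaks of all 8 libraries were merged into 178498 regions, and 114950 of these lay within 50 kb of an end of a protein-coding gene and were linked to the nearest one. The members received 455 of the linked regions, 289 for integrins and 166 for laminins, and every member had at least 1.

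The assay was ATAC-seq, in which a transposase cuts accessible DNA and sequenced cuts pile up as peaks. Each of 4 groups had 2 libraries: CBP at 60 h, WT at 60 h, CBP at 0 h and WT at 0 h, where 60 h is labelled differentiation and 0 h proliferation. The protocol common to all samples names SGC-CBP30, a bromodomain inhibitor of the acetyltransferases CBP and EP300, at 5 uM/ml, given over 48 h of proliferation or 60 h of differentiation. Which groups received it is not spelled out in the labels, so CBP and WT are used here as names only. The same labels give the cell line as C3H and the organism as pig, and they do not say whether the libraries of a group came from separate animals or cultures, so p-values measure only the spread between libraries, which may be technical.

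Laminins are trimers of an alpha, a beta and a gamma chain that polymerise into the basement membrane around each muscle fibre. Integrins are receptors made of an alpha and a beta subunit that bind matrix proteins outside the cell and link them to actin through adaptors such as talin and kindlin. In muscle, LAMA2 with LAMB1 or LAMB2 and LAMC1 forms the main laminins of the fibre surface, ITGA7 with ITGB1 is the main laminin-binding integrin of the fibre, and satellite cells lie between that basement membrane and the fibre.

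The lists held 88871 and 87977 peaks in CBP 60 h and 86282 and 82696 in WT 60 h. At 0 h the values were 135528 and 121757 in CBP and 127394 and 134181 in WT. The shorter 60 h lists affect every comparison of the times, and list length and time cannot be told apart in the deposited calls. Most results are therefore given for all deposited peaks and for equal peak numbers, which are the 82696 peaks of each library with the highest −log10 p. Taking equal numbers removes the difference in length but leaves the weakest peak kept at a −log10 p of 2.98 to 4.90 at 60 h and 8.94 to 10.8 at 0 h. The lists hold no read totals, so no counting interval can be given, and in bulk cells a smaller share of cells with an open region and a less open region in each cell cannot be told apart.

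Most of the muscle markers had a peak at a gene end. Of 12 satellite cell and myoblast markers, 10 and 10 had a peak within 1 kb of a gene end in CBP 60 h, 9 and 10 in WT 60 h, 10 and 10 in CBP 0 h and 10 and 10 in WT 0 h, the exceptions in every library being CALCR and ITGA7. The numbers were 4 to 5 of 8 for fibroblast, 4 to 6 of 9 for endothelial, 3 to 5 of 9 for immune, 3 of 6 for Schwann and neural, and 1 to 4 of 7 for epithelial markers. PDGFRA, CDH5, CSF1R, SOX10 and KRT5 were among the markers with no peak at a gene end in any library, while other markers of each of their types had one. The share of all protein-coding genes with such a peak is not given here. The numbers therefore do not set muscle markers apart from genes at large. A peak at a gene end is not expression, and the part of other cell types in the results below was not tested.

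The members as a group were about as accessible as other genes. With equal peak numbers, 43.7% and 43.5% of the 455 regions were called in CBP 60 h, 44.4% and 44.8% in WT 60 h, 45.5% and 46.4% in CBP 0 h, and 44.6% and 43.5% in WT 0 h. The same shares over all linked regions were 45.6% and 45.3% in CBP 60 h, 46.6% and 46.2% in WT 60 h, 48.1% and 47.0% in CBP 0 h, and 47.6% and 48.0% in WT 0 h. In the deposited lists 138 member regions (30.3%) were called in all 8 libraries, against 31.8% of all linked regions, and 91 in just 1 library (20%, against 21.4%). What differed was position. Only 46 member regions (10.1%) lay within 1 kb of a gene end, against 16.6% of all linked regions, while 298 (65.5%) lay elsewhere inside the gene, against 42.8%, and 111 (24.4%) lay outside it, against 40.6%. These genes are long, up to 594 kb for LAMA2, and no test was made of this difference.

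**Figure D1:**
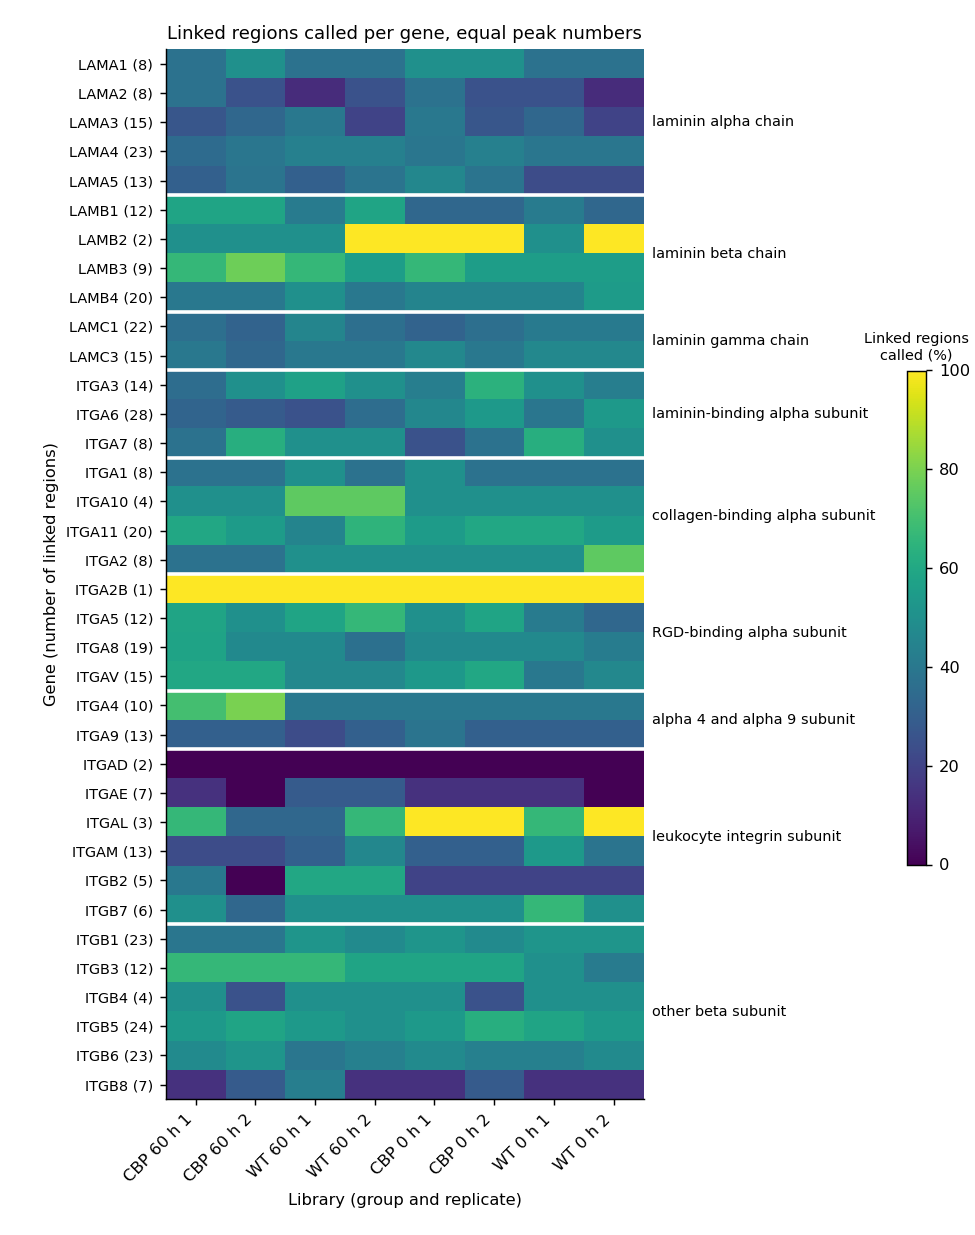
Percent of each gene's linked regions that were called in each library (columns, group and replicate) with equal peak numbers, with the reported genes ordered by class and the number of linked regions in brackets. ITGA4 stands at 70% and 80% in the CBP 60 h libraries and at 40% in the other 6, and ITGA6 is lower in the 4 libraries of 60 h than in the 4 of 0 h.

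Gene ends, which include the promoters, were called in all 8 libraries more often than the rest of these genes. Of the 46 gene-end regions 23 were (50%, against 65.8% of all linked gene-end regions), and of the inside and outside regions 28.5% and 27.0% were (against 24.5% and 25.7%). Of the 37 members, 23 had a region within 1 kb of a gene end that was called in all 8 libraries, 7 had such regions only in some libraries, and 7 had none (ITGA1, ITGA2B, ITGA4, ITGA7, ITGB8, LAMB3 and LAMB4). The gene table gives no strand, so the 5′ and 3′ ends were not separated. The strongest were those of ITGAV, the alpha subunit of the fibronectin and vitronectin receptors, and of LAMA2 and LAMB2. Strength is given as the percent rank of a region among the equal number of peaks of its library, where 100 is the strongest; the ranks, the −log10 p and the −log10 q rest on the authors' peak calls and describe each list on its own. The ITGAV end (chr15:91604101-91605997) ranked at 99.2 and 97.9 in CBP 60 h and 93.5 and 98.9 in WT 60 h. CBP 0 h had 92.8 and 95.1, and WT 0 h had 91.5 and 96.7. The LAMA2 end (chr1:34358878-34360273) ranked at 97.2 and 95.5 in CBP 60 h and 85.8 and 92.0 in WT 60 h. In CBP 0 h the values were 87.5 and 93.6, and in WT 0 h 96.2 and 86.6. At the ITGAV end both CBP 60 h libraries lay above the 4 libraries of 0 h, and at the LAMA2 end they lay above the libraries of WT 60 h and CBP 0 h.

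Most leukocyte integrins with a gene-end region had it called in some libraries only. ITGAD and ITGAM, alpha partners of ITGB2 on myeloid cells, had a gene-end region in 1 library each, ITGAE in 2, ITGB7 in 4 and ITGB2 in 6, and no equal list held a region of ITGAD. ITGAL, the alpha subunit of LFA-1 on lymphocytes, was the exception, with a region 692 bp from an end called in all 8 libraries. Of the 36 regions of the 6 leukocyte genes, 30.6% and 16.7% were called in CBP 60 h with equal peak numbers, 36.1% and 44.4% in WT 60 h, 33.3% and 33.3% in CBP 0 h, and 41.7% and 33.3% in WT 0 h. ITGAM was called at 3 and 5 of 13 regions in CBP 60 h, 4 and 6 in WT 60 h, 10 and 6 in CBP 0 h, and 9 and 7 in WT 0 h in the deposited lists, and at 3 to 7 with equal numbers. Its values at 60 h reach those at 0 h in the deposited lists.

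The first comparison was 60 h against 0 h in the CBP libraries. A region is counted as opened when both libraries of the first group and neither of the second called it, and as closed in the reverse case. In the deposited lists, 8 member regions opened (1.76%) and 81 closed (17.8%), beside 1.36% and 14.5% of all linked regions. With equal peak numbers 18 opened (3.96%) and 28 closed (6.15%), beside 3.64% and 5.57%. The members' shares lie near those of all regions in each case.

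In the WT libraries, 60 h against 0 h gave 4 opened (0.879%) and 67 closed member regions (14.7%) in the deposited lists, beside 0.575% and 14.3% of all linked regions. Equal peak numbers gave 11 opened (2.42%) and 13 closed (2.86%), beside 2.62% and 3.89%. Here too the members follow the background. With 2 libraries against 2, an exact permutation test cannot go below p = 0.333, so these counts carry no test.

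**Figure D2:**
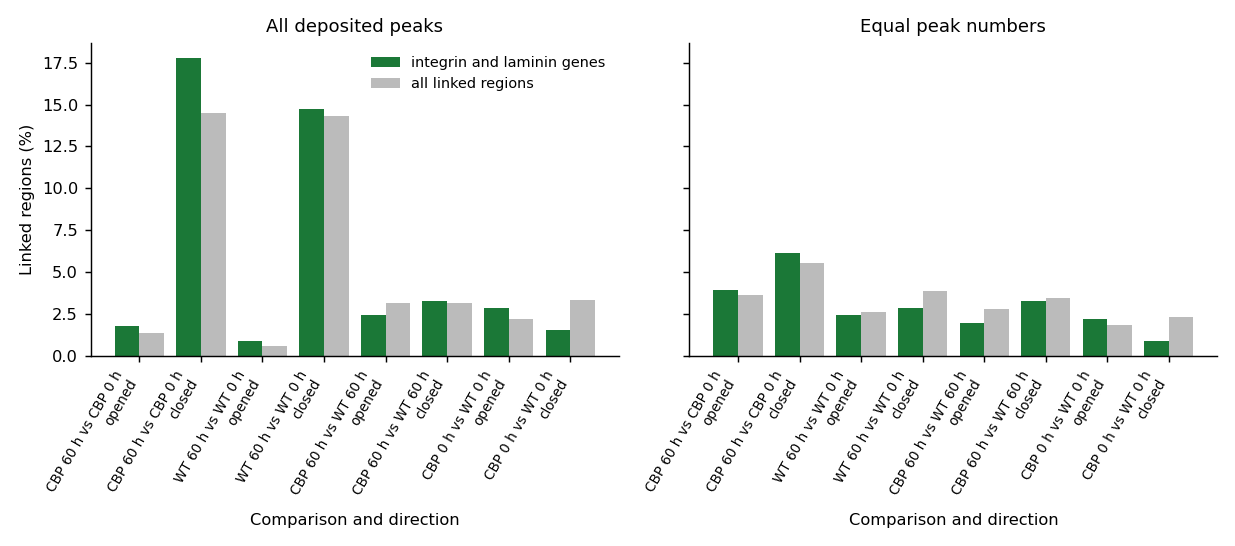
Percent of the 455 regions of integrin and laminin genes (green bars) and of all 114950 linked regions (grey bars) that opened or closed in each of 4 comparisons, for all deposited peaks (left) and equal peak numbers (right). Most green bars stay near the grey ones. For closing in CBP 0 h against WT 0 h they are lower, at 1.54% beside 3.35% on the left and 0.879% beside 2.35% on the right. These rest on 7 and 4 member regions. The tall bars for closing over time in the left panel, 17.8% and 14.7% of member regions, shrink to 6.15% and 2.86% in the right panel.

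Single genes were tested with limma on the percent of a gene's linked regions that were called with equal peak numbers, over 9104 genes with at least 5 linked regions, with Benjamini-Hochberg adjustment over all of them. Of the members, 31 were tested. In CBP cells over time 1 member passed, as higher, beside 1.56% of all genes higher and 3.31% lower. In WT cells over time 0 members passed the limma test, beside 1.26% higher and 1.87% lower, and 5 of 31 members had an unadjusted p under 0.05, beside 1815 of 9104 genes. Over the mean of both labels 1 passed as higher, beside 3.06% higher and 5.95% lower. The median difference of the 31 members was -3.33 percentage points in CBP and 0 in WT, and that of all genes was 0 in both. The mean difference of the members was -0.617 points in CBP and 2.79 in WT, and that of all genes -2.21 and -1.56. In CBP the members thus lay below all genes by the median but above them by the mean. In the deposited lists without correction for their length, 0 members were higher and 15 lower in CBP, 0 higher and 17 lower in WT, and 0 higher and 22 lower over both labels. Over all 9278 genes tested in that setting, 14 were higher and 3223 lower in CBP, 4 and 4038 in WT, and 7 and 6293 over both labels. With equal peak numbers lower calls were already the more numerous over all 9104 genes. They were 301 beside 142 higher in CBP, 170 beside 115 in WT and 542 beside 279 over both labels. A variant of the test that takes 1 pooled spread for all genes with the same number of regions was added after the data had been seen, because a percent of few regions often has no spread at all between 2 libraries; its calls are named as pooled-spread calls. By that test 2 members were higher and 1 lower in CBP over time (beside 3.22% and 5.93% of all genes), 2 higher and 1 lower in WT (1.34% and 2.78%), 2 higher and 1 lower over both (4.49% and 9.42%), and 1 higher and 1 lower in CBP 60 h against WT 60 h (2.16% and 2.91%).

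ITGA4 was the member that passed. It encodes the alpha subunit of VLA-4, the receptor for VCAM1 and for fibronectin. Of its 10 linked regions, the equal lists called 7 and 8 in CBP 60 h and 4 and 4 in WT 60 h. The libraries of 0 h stood at 4 and 4 in CBP and 4 and 4 in WT. Both CBP 60 h libraries lay above the other 6, which were all alike. The share rose to 75% in CBP 60 h, against 40% in CBP 0 h, by 35.0 points (SE 3.49, limma adjusted p = 0.00885), and pooled spread kept the call (SE 7.92, adjusted p = 0.000904). Against WT 60 h the difference was also 35.0 points (SE 3.49, limma adjusted p = 0.0100). Both comparisons share the CBP 60 h libraries. In WT the share was 40% at 60 h and 40% at 0 h, and the difference between the time effects, 35.0 points (SE 4.94, limma adjusted p = 0.0428), did not pass with pooled spread (adjusted p = 0.129), nor when any 1 of the 6 libraries outside CBP 60 h was left out (adjusted p 0.0772 to 0.105). The difference over both labels, 17.5 points (SE 2.47, limma adjusted p = 0.0211), likewise did not pass without any 1 of those 6 (0.0516 to 0.0632).

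The additional ITGA4 calls were weak peaks. Region 10, 4096 bp inside an end (chr15:87023913-87024332), had a −log10 q of 4.71 and 5.28 in CBP 60 h, 5.16 in CBP 0 h replicate 1 and no peak elsewhere. Region 2, 29735 bp outside the gene, had 5.47 and 8.46 in CBP 60 h, 3.29 in WT 60 h replicate 2 and no peak at 0 h. Region 4, 4758 bp inside an end, carried much stronger peaks in every library, with a −log10 q of 26.2 and 19.2 in CBP 60 h and 14.8 and 14.1 in WT 60 h. The corresponding values were 57.9 and 33.0 in CBP 0 h and 37.8 and 34.7 in WT 0 h. The ITGA4 call depended on how the lists were cut. The CBP time difference was 15.0 points in the deposited lists without correction (adjusted p = 0.179) and 5.00 points with peaks of −log10 q of at least 5 (adjusted p = 0.593). The difference from WT 60 h was 35.0 points (adjusted p = 0.265) and 15.0 points (adjusted p = 0.615) in those versions. With all deposited peaks and each library centred, the CBP time difference was 37.6 points and passed (adjusted p = 0.0238), and the difference from WT 60 h was 34.2 points and did not (adjusted p = 0.0790). In the deposited lists 7 and 8 regions were called in CBP 60 h, 4 and 4 in WT 60 h, 7 and 5 in CBP 0 h, and 5 and 4 in WT 0 h, so CBP 0 h replicate 1 reached CBP 60 h replicate 1.

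**Figure D3:**
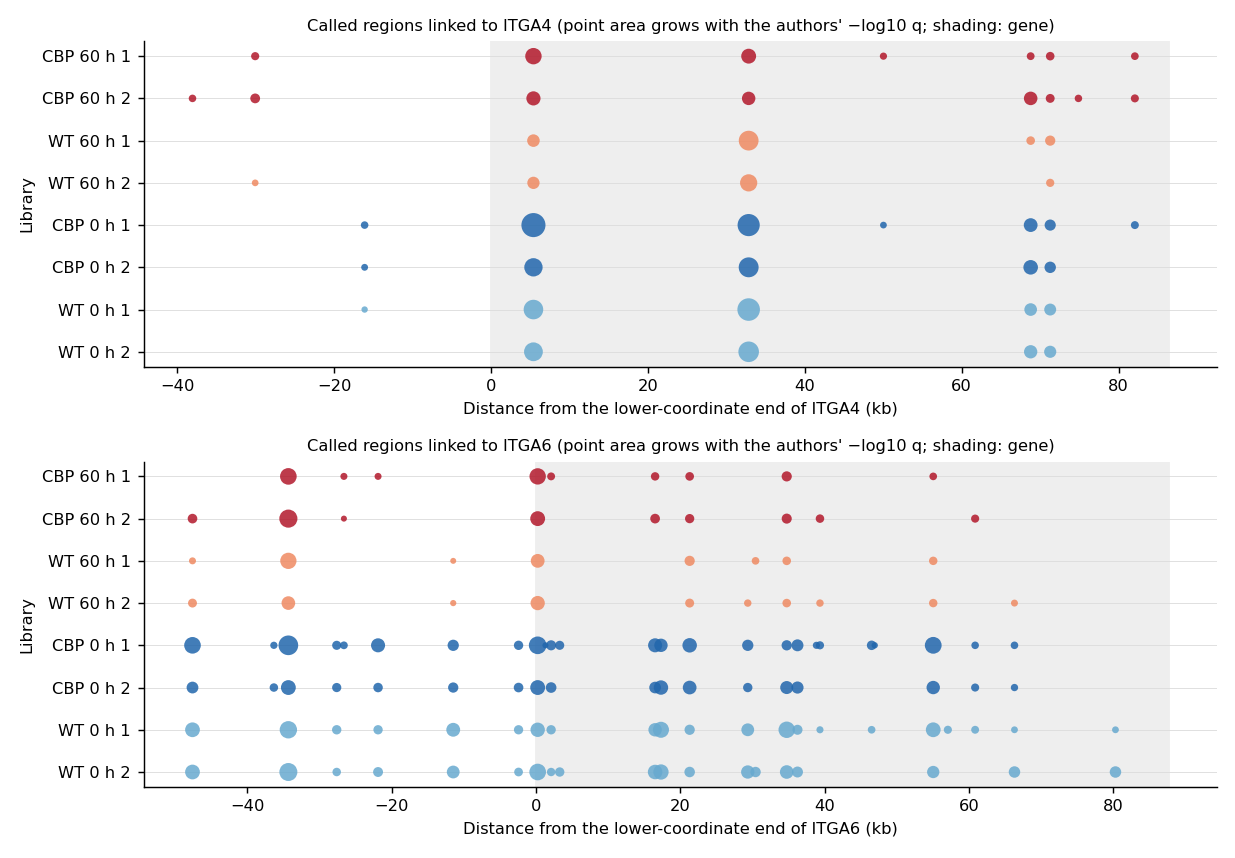
Regions called at ITGA4 (top) and ITGA6 (bottom) in the deposited lists, one line of points per library, against the distance in kb from the lower-coordinate end of the gene; the area of a point grows with the authors' −log10 q and the shading spans the gene. ITGA4 shows small points in the CBP 60 h lines that most other lines lack, and ITGA6 shows 18 to 25 points in the 0 h lines, against 8 to 10 in the 60 h lines.

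Of the 37 members, ITGA6 showed the largest difference in the number of calls between the times, in both labels, in the deposited lists. It also had the most linked regions, which favours it in a count. As a share of linked regions other members fell further, such as ITGAL (3 linked regions) in both labels and LAMA2 and LAMC1 in WT. ITGA6 encodes the laminin-binding alpha subunit that pairs with ITGB1 or ITGB4 and that is found on proliferating myoblasts. Of its 28 linked regions, the deposited lists called 9 and 9 in CBP 60 h and 8 and 10 in WT 60 h. For 0 h, the lists gave 25 and 18 in CBP and 21 and 19 in WT. Equal peak numbers left 9 and 8 in CBP 60 h and 7 and 10 in WT 60 h. At 0 h the values were 13 and 15 in CBP and 11 and 15 in WT. The 4 libraries of 60 h lay below the 4 of 0 h in both versions. The difference was -19.6 points in CBP (SE 6.31, limma adjusted p = 0.153), -16.1 points in WT (SE 6.31, adjusted p = 0.257) and -17.9 points over both (SE 4.46, adjusted p = 0.0770), which does not pass. With pooled spread it did pass, with adjusted p = 0.00269 in CBP, 0.0321 in WT and 2.1e-05 over both. The mean share at 60 h was 30.4% in CBP and 30.4% in WT.

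Within ITGA6 the regions called at 0 h alone were inside and outside the gene, while a gene-end region was called in all 8 libraries. Region 14, 17043 bp inside the gene (chr15:78521151-78521719), had no peak in any library of 60 h and a −log10 q of 16.96 and 19.9 in CBP 0 h and 24.98 and 22.6 in WT 0 h. Region 19, 35955 bp inside (chr15:78540063-78540640), had none at 60 h and 13.2 and 13.8 in CBP 0 h and 8.97 and 10.96 in WT 0 h. Both closed with equal peak numbers too. Region 13, next to region 14 (chr15:78520240-78521007), differed between the labels at 60 h: it had 5.95 and 8.27 in CBP 60 h and no peak in WT 60 h. CBP 0 h had 18.8 and 12.6, and WT 0 h had 17.1 and 20.3. Regions 4 and 8, outside the gene, were also called in all 4 libraries of 0 h and none of 60 h, but only CBP 0 h replicate 2 kept them with equal numbers. The gene-end region 9 (chr15:78503708-78504995) ranked at 86.1 and 80.3 in CBP 60 h and 72.4 and 79.1 in WT 60 h. CBP 0 h had 68.6 and 62.1, and WT 0 h had 52.5 and 64.4. Its rank was thus higher in each library of 60 h than in any of 0 h, against the direction of the number of calls.

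With equal peak numbers, calls at the other laminin-binding subunits overlapped between the times. ITGA7, the adult muscle partner of ITGB1, had 8 regions, of which the equal lists called 3 and 5 in CBP 60 h and 4 and 4 in WT 60 h. In CBP 0 h the values were 2 and 3, and in WT 0 h 5 and 4. Its region 1 (chr5:21133470-21135100), 6905 bp inside the gene, was called in every deposited list, with a −log10 q of 2.40 and 3.14 in CBP 60 h and 7.43 and 4.73 in WT 60 h. The libraries of 0 h stood at 44.5 and 47.9 in CBP and 28.1 and 27.1 in WT. These values place it near the bottom of both CBP 60 h lists and far above that at 0 h: with equal numbers it was absent from CBP 60 h replicate 1, ranked at 1.95 in replicate 2, and ranked at 37.5 and 24.5 in WT 60 h. The corresponding values were 84.7 and 92.5 in CBP 0 h and 69.1 and 64.5 in WT 0 h. ITGA3, the alpha subunit of a receptor for laminins of epithelial basement membranes, was called at 5 and 7 of 14 regions in CBP 60 h, 8 and 7 in WT 60 h, 11 and 11 in CBP 0 h, and 10 and 12 in WT 0 h in the deposited lists, and at 5 to 9 in all libraries with equal numbers.

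ITGB1, the beta subunit shared by most of these receptors, was called at 9 and 9 of 23 regions in CBP 60 h, 12 and 11 in WT 60 h, 18 and 13 in CBP 0 h, and 17 and 17 in WT 0 h in the deposited lists. With equal numbers the counts were 9 and 9 in CBP 60 h and 12 and 11 in WT 60 h. For 0 h, the lists gave 12 and 11 in CBP and 12 and 12 in WT. CBP 60 h was lowest in both versions, 10.9 points below CBP 0 h (SE 2.24, limma adjusted p = 0.0749) and 10.9 points below WT 60 h (SE 2.24, adjusted p = 0.0853), and neither passed; both differences use the CBP 60 h libraries. In the opposite direction, ITGB1 region 19, 26865 bp outside the gene (chr10:56157473-56157767), was in the equal lists of all 4 libraries of 60 h and none of 0 h, although WT 0 h replicate 2 held it below that limit with a −log10 q of 5.82.

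Calls at the other beta subunits ITGB5 and ITGB6 overlapped between the times with equal peak numbers. ITGB5, a partner of ITGAV, was called at 13 and 14 of 24 regions in CBP 60 h, 13 and 12 in WT 60 h, 19 and 18 in CBP 0 h, and 20 and 22 in WT 0 h in the deposited lists, and at 12 to 15 in each library with equal numbers. Its region 11, 46004 bp inside the gene, had a −log10 q of 11.8 and 9.83 in CBP 60 h, 3.84 and 4.42 in WT 60 h, no peak in CBP 0 h, and 8.67 in WT 0 h replicate 2 only. ITGB6, best known from epithelia, was called at 11 and 12 of 23 in CBP 60 h, 9 and 10 in WT 60 h, 18 and 14 in CBP 0 h, and 15 and 14 in WT 0 h, and at 9 to 12 with equal numbers. ITGB3, the beta subunit of the platelet integrin and of a vitronectin receptor, was called at 8 and 8 of 12 in CBP 60 h, 8 and 7 in WT 60 h, 7 and 7 in CBP 0 h, and 6 and 5 in WT 0 h with equal numbers, a mean difference of 12.5 points between the times (SE 2.83, limma adjusted p = 0.0625), beside a median of -2.08 points over all genes. Its region 2, 894 bp from an end, was in the equal lists of all 4 libraries of 60 h and none of 0 h, and both second replicates of 0 h held it below that limit. In the deposited lists ITGB3 ran the other way, with 8 and 8 in CBP 60 h, 8 and 7 in WT 60 h, 9 and 10 in CBP 0 h, and 8 and 10 in WT 0 h.

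ITGAV and ITGA5 are receptors for fibronectin. ITGAV was called at 9 and 9 of 15 regions in CBP 60 h, 7 and 7 in WT 60 h, 8 and 9 in CBP 0 h, and 6 and 7 in WT 0 h with equal numbers, so that the CBP libraries lay above the WT libraries at 60 h and at 0 h. The deposited lists gave 9 and 9 in CBP 60 h, 7 and 7 in WT 60 h, 11 and 12 in CBP 0 h, and 10 and 10 in WT 0 h. The difference was 13.3 points at 60 h (SE 3.27, limma adjusted p = 0.111) and 13.3 points at 0 h (SE 3.27, adjusted p = 0.211). ITGA5, the alpha subunit of the classical fibronectin receptor, was called at 7 and 6 of 12 regions in CBP 60 h, 7 and 8 in WT 60 h, 6 and 7 in CBP 0 h, and 5 and 4 in WT 0 h with equal numbers. The WT time difference of 25 points (SE 5.49, limma adjusted p = 0.114) was a pooled-spread call (adjusted p = 0.0233), but it turned to -8.33 points in the deposited lists, where 8 and 8 regions were called in WT 60 h, against 9 and 9 in WT 0 h.

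The collagen receptors ITGA1, ITGA2, ITGA10 and ITGA11 had 40 regions, of which 20 and 19 were called in CBP 60 h, 20 and 23 in WT 60 h, 21 and 21 in CBP 0 h, and 21 and 22 in WT 0 h with equal numbers. ITGA2 was called at 3 and 3 of 8 regions in CBP 60 h, 4 and 4 in WT 60 h, 7 and 5 in CBP 0 h, and 6 and 7 in WT 0 h in the deposited lists, and at 3 to 6 with equal numbers. Its region 8, 4510 bp outside the gene (chr16:32444821-32445495), was called in all 4 libraries of 0 h and none of 60 h with either list, at a −log10 q of 21.6 and 11.3 in CBP 0 h and 10.8 and 10.3 in WT 0 h. ITGA11, a collagen receptor of mesenchymal cells, was called at 13 and 11 of 20 in CBP 60 h and 9 and 13 in WT 60 h. At 0 h the values were 16 and 13 in CBP and 15 and 16 in WT, and equal numbers gave 9 to 13 in every library. The gene-end region of ITGA10 (chr4:99422549-99423900) ranked at 25.7 and 31.6 in CBP 60 h and 71.6 and 73.2 in WT 60 h. CBP 0 h had 71.3 and 78.1, and WT 0 h had 75.0 and 86.1. It was chosen for mention after its values were seen, and both CBP 60 h libraries lay far below the other 6. ITGA9, which binds tenascin and osteopontin, had 13 linked regions, called at 6 and 4 in CBP 60 h, 3 and 4 in WT 60 h, 10 and 9 in CBP 0 h, and 4 and 7 in WT 0 h, and at 3 to 5 with equal numbers.

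**Figure D4:**
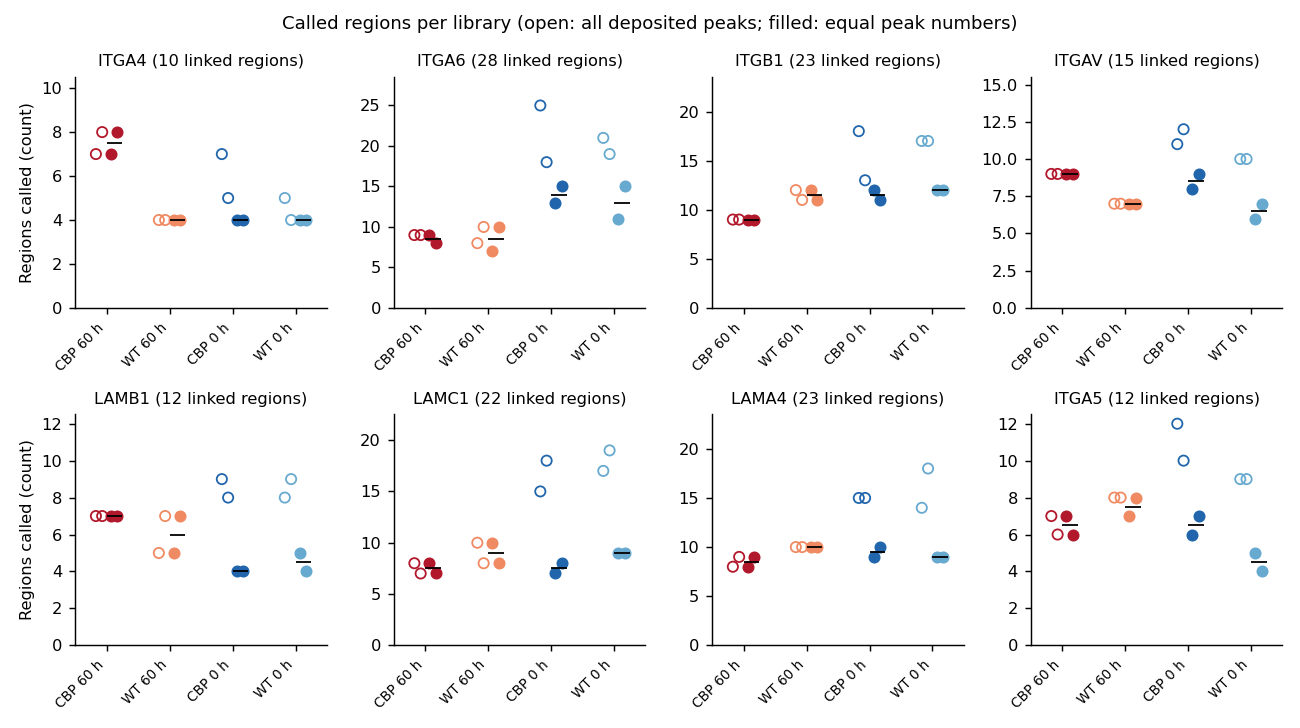
Number of linked regions called per library for 8 members, by group (x axis, 2 libraries each), with open circles for all deposited peaks, filled circles for equal peak numbers and a short line at the mean of the latter; each y axis runs from 0 to the gene's number of linked regions. With equal peak numbers ITGA4 is high only in CBP 60 h, while an open circle of CBP 0 h reaches it at 7 regions; ITGA6 is lower at 60 h with both kinds of circle, and for LAMC1 and LAMA4 the open circles are lower at 60 h while the filled ones overlap.

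Among the laminin alpha chains, LAMA2 had few linked regions for its length. The equal lists called 3 and 2 of its 8 linked regions in CBP 60 h and 1 and 2 in WT 60 h. In CBP 0 h the values were 3 and 2, and in WT 0 h 2 and 1. A further 32 regions lay inside the gene but more than 50 kb from either end, and the deposited lists called 10 and 10 of these in CBP 60 h and 10 and 12 in WT 60 h. The libraries of 0 h stood at 19 and 14 in CBP and 22 and 24 in WT. LAMA4, the alpha chain of vessels and developing muscle, was called at 8 and 9 of 23 regions in CBP 60 h, 10 and 10 in WT 60 h, 15 and 15 in CBP 0 h, and 14 and 18 in WT 0 h in the deposited lists. Equal numbers gave 8 to 10 in every library. Its region 6, 41578 bp inside an end (chr1:78181991-78182986), was in the equal lists of all 4 libraries of 60 h and none of 0 h. It was called in 5 of the 8 deposited lists, so CBP 0 h also held it below that limit.

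LAMA5, a broadly expressed alpha chain that also occurs at the neuromuscular junction, was called at 4 and 5 of 13 regions in CBP 60 h, 4 and 5 in WT 60 h, 11 and 9 in CBP 0 h, and 9 and 10 in WT 0 h in the deposited lists. With equal numbers it was called at 4 and 5 in CBP 60 h and 4 and 5 in WT 60 h. The corresponding values were 6 and 5 in CBP 0 h and 3 and 3 in WT 0 h. The difference of CBP 0 h from WT 0 h, 19.2 points (SE 4.45), did not pass (limma adjusted p = 0.193). LAMA3, an epithelial alpha chain, was called at 4 and 5 of 15 in CBP 60 h, 6 and 3 in WT 60 h, 12 and 10 in CBP 0 h, and 9 and 8 in WT 0 h in the deposited lists, and at 3 to 6 with equal numbers. For these chains the lower number of calls at 60 h was seen in the longer deposited lists and little or not at all in the equal ones.

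The beta chain LAMB1 ran against that direction. Equal lists called 7 and 7 of its 12 regions in CBP 60 h, 5 and 7 in WT 60 h, 4 and 4 in CBP 0 h, and 5 and 4 in WT 0 h, so that CBP 60 h lay above all libraries of 0 h while WT 60 h touched them. The CBP time difference was 25 points (SE 6.09, limma adjusted p = 0.0909) and that over both labels 18.8 points (SE 4.31, adjusted p = 0.0625). Both were pooled-spread calls, with adjusted p = 0.0114 and 0.00419. In the deposited lists, where 7 and 7 regions were called in CBP 60 h, against 9 and 8 in CBP 0 h, the difference turned to -12.5 points. Region 9 of LAMB1 (chr9:107735305-107735810) was called in all 8 deposited lists, but it stayed within the equal lists only at 60 h. Region 5, inside the gene (chr9:107716352-107717384), was in all equal lists and ranked at 83.2 and 80.1 in CBP 60 h and 81.8 and 82.6 in WT 60 h. For 0 h, the lists gave 47.6 and 25.5 in CBP and 50.01 and 59.9 in WT.

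LAMB2, the beta chain of the neuromuscular junction, had 2 regions. One covers a gene end and was called in all 8 libraries. The other, 2694 bp outside, was called in both deposited lists of WT 60 h, CBP 0 h and WT 0 h but in neither of CBP 60 h. LAMB4, which lies next to LAMB1, was called at 8 and 9 of 20 in CBP 60 h, 10 and 8 in WT 60 h, 16 and 13 in CBP 0 h, and 13 and 14 in WT 0 h, and at 8 to 11 with equal numbers. Its region 7 (chr9:107798793-107799664) was called in all 4 libraries of 0 h and none of 60 h with either list. Region 6 of LAMB4, 16145 bp inside the gene, had a −log10 q of 6.87 and 8.10 in CBP 60 h, 4.68 in WT 0 h replicate 2 and no peak elsewhere. Region 20, 6396 bp outside, had 4.71 in CBP 60 h replicate 1, 2.97 and 3.29 in WT 60 h and no peak at 0 h.

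The gamma chains LAMC1 and LAMC3 had fewer calls at 60 h in the deposited lists. LAMC1, the gamma chain of most laminins, was called at 8 and 7 of 22 regions in CBP 60 h, 10 and 8 in WT 60 h, 15 and 18 in CBP 0 h, and 17 and 19 in WT 0 h, and at 7 to 10 with equal numbers. LAMC3, with 15 regions, was called at 7 and 5 in CBP 60 h, 6 and 6 in WT 60 h, 10 and 10 in CBP 0 h, and 12 and 11 in WT 0 h. With equal numbers it was called at 6 and 5 in CBP 60 h, 6 and 6 in WT 60 h, 7 and 6 in CBP 0 h, and 7 and 7 in WT 0 h. Its difference was -6.67 points in CBP over time (SE 3.27, limma adjusted p = 0.315) and -6.67 points in WT over time (SE 3.27, adjusted p = 0.376), which did not pass.

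Over all 8 deposited lists, 30 member regions (6.59%) were called in the 4 libraries of 0 h and in none of 60 h, beside 5.47% of all linked regions, and 0 member regions did the reverse, beside 0.109%. Besides those at ITGA6, they belonged to ITGB5 (3 regions), LAMC1 (3), LAMA4, LAMA5, LAMB4, ITGAV and ITGB6 (2 each) and 10 further genes (1 each), and 3 of the 30, ITGB6 region 22 and LAMA5 region 1 among them, lay within 1 kb of a gene end. With equal numbers 5 remained (1.10%, beside 1.27%): ITGA6 regions 14 and 19, ITGA2 region 8, LAMB4 region 7 and LAMC1 region 14. Another 4 were called only at 60 h (0.879%, beside 0.687%): ITGB1 region 19, ITGB3 region 2, LAMA4 region 6 and LAMB1 region 9.

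Regions present in every library were compared by rank. This comparison was chosen after the data had been seen. Of 124 member regions in all 8 equal lists, 16 (12.9%) ranked higher in every library of 60 h than in any of 0 h, beside 14.1% of all linked regions in all equal lists, and 12 (9.68%) ranked lower, beside 8.11%. The members' shares are near those of all such regions. The higher ones were led by ITGA8 region 5, at 66.05 and 68.7 in CBP 60 h and 69.0 and 41.3 in WT 60 h. At 0 h the values were 21.8 and 23.1 in CBP and 6.76 and 26.9 in WT. ITGA8 encodes an alpha subunit of mesenchymal cells that binds nephronectin. Among the lower ones, LAMA3 region 6, 24283 bp inside the gene, ranked at 64.9 and 53.1 in CBP 60 h and 90.1 and 77.7 in WT 60 h. CBP 0 h had 96.4 and 97.5, and WT 0 h had 98.5 and 99.2. Gene ends made up 5 of the 16 higher and 0 of the 12 lower member regions, beside 56.3% and 13.0% of all linked regions that moved the same way. The bases differ: gene ends were 23 of the 124 member regions compared, but 36.4% of all linked regions compared.

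**Figure D5:**
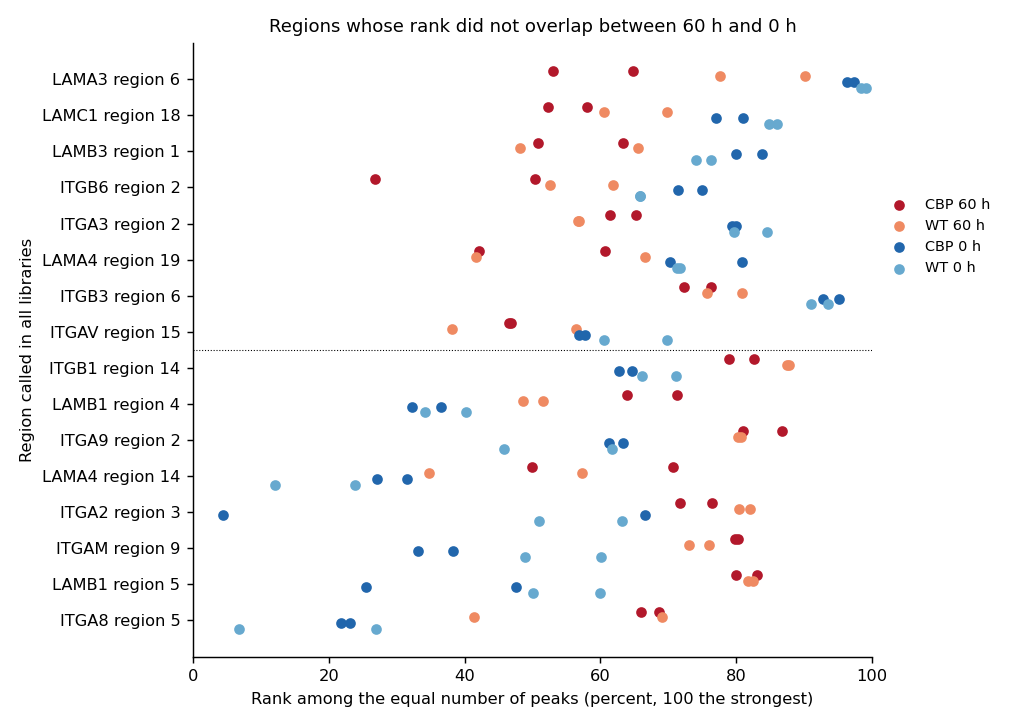
Percent rank in each library (x axis, 100 the strongest of the equal number of peaks) for 8 member regions with the most negative and 8 with the most positive difference between 60 h and 0 h, over the genes reported, among those whose libraries did not overlap between the times; colours give the 4 groups and the dotted line separates the directions. LAMA3 region 6 is lower at 60 h, and LAMB1 region 5 and ITGA8 region 5 are higher.

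Between the labels at 60 h, CBP against WT gave 11 opened (2.42%) and 15 closed member regions (3.30%) in the deposited lists, beside 3.14% and 3.17% of all linked regions, and 9 (1.98%) and 15 (3.30%) with equal numbers, beside 2.77% and 3.45%. At 0 h it gave 13 opened (2.86%) and 7 closed (1.54%), beside 2.23% and 3.35%, and 10 (2.20%) and 4 (0.879%) with equal numbers, beside 1.85% and 2.35%. In the limma test ITGA4 alone passed at 60 h, beside 1.44% of all genes higher and 2.52% lower. At 0 h 0 members passed the limma test, beside 0.791% higher and 0.901% lower; 5 of 31 had an unadjusted p under 0.05, beside 1177 of 9104 genes, and 0 passed with pooled spread (0.373% and 0.494%). For the difference of the time effects ITGA4 alone passed, beside 0.989% higher and 1.53% lower, and 0 passed with pooled spread (0.132% and 0.198%).

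The strongest regions that separated the labels were few. ITGAV regions 1 and 2 lie 38290 and 37497 bp outside the gene. Region 1 (chr15:91566117-91566376) had a −log10 q of 11.2 and 6.78 in CBP 60 h and no peak in the other 6 libraries, and region 2 (chr15:91566646-91567169) had 5.35 and 4.65 in CBP 60 h, no peak in WT 60 h, 8.44 and 6.86 in CBP 0 h and no peak in WT 0 h. Region 2 was the 1 member region called in all CBP and no WT deposited lists, beside 0.142% of all linked regions, and 0 regions did the reverse, beside 0.231%. The equal lists held 1 other in each direction: LAMB3 region 7 in every CBP and no WT list, beside 0.197%, and ITGA11 region 3 in every WT and no CBP list, beside 0.374%.

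ITGA3 region 8 and ITGAM region 5 were missing from CBP 60 h alone. ITGA3 region 8, 9360 bp inside the gene, had no peak in CBP 60 h and a −log10 q of 7.23 and 8.36 in WT 60 h. In CBP 0 h the values were 13.97 and 15.5, and in WT 0 h 25.4 and 26.5. ITGAM region 5, 8930 bp outside the gene, had none in CBP 60 h and 11.3 and 8.79 in WT 60 h. The libraries of 0 h stood at 16.7 and 15.8 in CBP and 25.2 and 23.8 in WT. ITGB5 region 3 and ITGB1 region 9 were called in CBP 0 h alone, with 13.5 and 15.9 for ITGB5 region 3 and 10.6 and 8.40 for ITGB1 region 9. ITGA2 region 4 and ITGB1 region 4 were called in WT 0 h alone, with 7.60 and 10.04 for ITGA2 region 4 and 6.78 and 10.3 for ITGB1 region 4. ITGB2, the beta subunit of leukocyte integrins, was called at 2 and 0 of 5 regions in CBP 60 h, 3 and 3 in WT 60 h, 1 and 1 in CBP 0 h, and 1 and 1 in WT 0 h with equal numbers, and at 3 and 0 in CBP 60 h, 3 and 3 in WT 60 h, 2 and 3 in CBP 0 h, and 4 and 3 in WT 0 h in the deposited lists. Its difference of -40 points at 60 h (SE 12.8) did not pass the limma test (adjusted p = 0.186) but passed with pooled spread (adjusted p = 0.0132). So did its difference of 40 points between 60 h and 0 h in WT (limma adjusted p = 0.197, pooled spread 0.0180), which was -10 points in the deposited lists. Of the 9 immune markers, ITGAM itself among them, 4 were tested. Their median difference between CBP and WT was -8.57 points at 60 h (0 above and 4 below 0). At 0 h it was -9.08 points (0 above and 3 below 0), and 0 passed limma at either time. Of the 54 regions of the 9 markers, 0 opened and 4 closed at 60 h in the deposited lists, beside 3.14% and 3.17% of all linked regions. At 0 h 3 opened and 0 closed, beside 2.23% and 3.35%. With equal peak numbers, on which the medians rest, 0 opened and 4 closed at 60 h, beside 2.77% and 3.45%. In those lists 0 opened and 2 closed at 0 h, beside 1.85% and 2.35%. The direction of the 0 h count thus turned round with the lists used. In each library 3 to 5 of the 9 markers had a peak at a gene end. CSF1R, CD74 and TYROBP had none in any library, and the part of immune cells in the leukocyte integrin values was not tested.

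By rank, 8 of the 124 regions (6.45%) were higher in every CBP than in any WT library, beside 3.46% of all such regions, and 6 (4.84%) were lower, beside 2.94%. Of the 8 higher ones, 5 lay at a gene end (LAMA3, LAMA4, ITGA2, ITGA5 and ITGAL), and of the 6 lower ones 0 did, beside 42.0% and 14% of the linked regions that moved the same way. The LAMA4 end (chr1:78222917-78224879) ranked at 78.4 and 81.8 in CBP 60 h and 62.0 and 71.8 in WT 60 h. The corresponding values were 74.3 and 74.3 in CBP 0 h and 61.2 and 57.0 in WT 0 h. ITGA9 region 11 had the widest gap, at 49.9 and 61.5 in CBP 60 h and 3.67 and 15.7 in WT 60 h. For 0 h, the lists gave 65.5 and 78.4 in CBP and 39.9 and 37.5 in WT. At 60 h alone, 34 regions ranked higher and 41 lower in CBP (27.4% and 33.1%, beside 25.9% and 23.2%). Of these, 13 of the 34 but 1 of the 41 lay at a gene end, beside 43.7% and 21.5% of all linked regions that moved the same way. Gene ends were 23 of the 124 member regions compared, but 36.4% of all linked regions compared.

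The partners of these genes were read with the same test at equal peak numbers. Their values with pooled spread or in the deposited lists are not given here. How far these calls depend on the processing is therefore not shown. Over all 9104 genes, 1.56% passed as higher and 3.31% as lower in CBP over time, and 1.26% and 1.87% in WT over time. These shares were 3.06% and 5.95% over both labels, and 1.44% and 2.52% for CBP 60 h against WT 60 h. Between the labels at 0 h they were 0.791% and 0.901%, and for the difference of the time effects 0.989% and 1.53%. Among 29 integrin adaptors and focal adhesion genes, 21 were tested, and 0 passed in CBP over time and 0 in WT over time. Of these, 1 was lower in CBP 60 h than in WT 60 h: ACTN1, an actin crosslinker with 34 linked regions, by -14.7 points (SE 2.27, limma adjusted p = 0.0409). Its difference of the time effects, -22.1 points (SE 3.21, limma adjusted p = 0.0430), passed too and uses the same 60 h libraries. FERMT2, a kindlin that activates integrins (22 linked regions), rose over both labels with time by 12.5 points (SE 1.94, adjusted p = 0.0278). Of 19 basement membrane partners of laminin, 17 were tested and 0 passed in any of the 6 limma contrasts. Of 17 tested genes of the dystroglycan complex and other laminin receptors, 0 passed in CBP over time. In WT, SGCD, a sarcoglycan with 7 linked regions, rose by 14.3 points (SE 1.47, adjusted p = 0.0111). It was also lower in CBP 60 h than in WT 60 h (difference -14.3, SE 1.47, adjusted p = 0.0100). Both comparisons share the WT 60 h libraries. For the difference of the time effects, 1 of the 17 passed as higher and 1 as lower. The lower one was SGCD (-14.3 points, SE 2.09, limma adjusted p = 0.0430). With 7 linked regions the share of a gene moves in coarse steps, so the SGCD values rest on few regions.

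Of 17 tested genes for other ligands of integrins, 3 rose and 0 fell in CBP over time, and 1 rose and 0 fell in WT. Over all genes, 1.56% were higher and 3.31% lower in CBP, and 1.26% and 1.87% in WT. TNC, which encodes tenascin-C (31 linked regions), rose by 19.4 points in CBP (SE 2.25, limma adjusted p = 0.0137). POSTN, which encodes periostin (12), rose there by 29.2 points (SE 4.80, adjusted p = 0.0429). VCAM1, the cell-surface ligand of the ITGA4 integrin (18), rose by 19.4 points in CBP (SE 3.30, adjusted p = 0.0451). COL1A1 (13) rose in WT by 42.3 points (SE 4.45, adjusted p = 0.0120). It was 30.8 points lower in CBP 60 h than in WT 60 h (difference -30.8, SE 4.45, adjusted p = 0.0323). SPP1 (9) and TNN (16) fell with time over both labels, by 13.9 points (SE 2.70, adjusted p = 0.0440) and 18.8 points (SE 3.56, adjusted p = 0.0427). For comparison, MYOG, the myogenic factor of differentiation, rose by 45 points in CBP (SE 5.70, limma adjusted p = 0.0195). It was 1 of 11 tested satellite cell and myoblast markers, of which more fell than rose. Their median difference was -2.38 points in CBP (4 above and 6 below 0) and -5.56 points in WT (4 above and 7 below 0). Over both labels it was -2.98 points (4 above and 6 below 0). In WT over time 0 of these markers passed, MYOG included. Over both labels MYOG rose by 37.5 points (SE 4.03, adjusted p = 0.0102). TNC and VCAM1 also rose over both labels, by 14.5 (adjusted p = 0.0109) and 12.5 points (adjusted p = 0.0425). COL1A1 passed there as higher too (adjusted p = 0.0165), and POSTN did not pass. For the difference of the time effects, 0 of the 17 ligand genes and 0 of 11 tested satellite cell and myoblast markers passed. Their time effects were thus not shown to differ between the labels.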

How the data were processed

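The authors deposited a narrowPeak list for each library. The submitters' processing notes name Trimmomatic, MACS2 2.1.0 and the build Sscrofa11.1. The aligner, the handling of duplicates and any shift of reads: not given in the sources used here; other choices there would move peak edges and weak calls. Each list gives the authors' score, fold enrichment over background, −log10 p-value and −log10 q-value per peak, used within a list to rank or filter. Overlapping peaks (1 bp or more, chromosomes 1 to 18 and X) of all libraries became 1 region, and a region was linked to the nearest end of a protein-coding gene within 50 kb, from a RefSeq table without strand or exons. ITGAX, listed there as non-coding, and ITGBL1, not an integrin subunit, were left out.

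Percents of linked regions called were fitted with limma 3.58.1 (R 4.3.3) in 1 model of the 4 groups over all genes with at least 5 linked regions, with a variance trend on the number of regions and a threshold of adjusted p 0.05; the steps were tested on simulated data. Values in every library are given for members that pass, members with a net change of at least 2 regions in a comparison, and the main muscle chains; named regions are those that separate the times or labels, and the strongest 2 opened and closed of each comparison. Members and lists were chosen with earlier results of these data known. No DNA or protein sequence was used here. A few items among the members and lists are counted in the totals but not reported here.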

Additional observations from a re-analysis of the deposited data

Results flagged for a closer look

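The change over time in the share of ITGA4 regions called differed between the labels by 35 percentage points (SE 4.94, limma adjusted p = 0.0428). The effect was 35.0 points in CBP (75% at 60 h, 40% at 0 h) and 0 in WT (40% at 60 h, 40% at 0 h), in 2 libraries per group. Without a library, the limma adjusted p of this difference ran between 0.00203 and 0.105, and it missed the threshold when any 1 of the 6 libraries outside CBP 60 h was left out. Over all alternatives the difference ran between 10 and 40 points, with an adjusted p between 0.00203 and 0.774.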

How the results depend on the processing

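Counts of member regions in the deposited lists changed with the processing. For CBP 60 h against CBP 0 h (8 opened, 81 closed), equal peak numbers gave 18 and 28, and links within 10 kb gave 2 and 31. For WT 60 h against WT 0 h (4 opened, 67 closed), equal peak numbers gave 11 and 13, links within 10 kb 1 and 29, and a −log10 q of at least 5 gave 2 opened. For CBP 60 h against WT 60 h (11 and 15), a −log10 q of at least 5 gave 7 closed, counting only libraries whose peaks cover 50% of a region gave 17 opened, and 10 kb gave 3 and 9. For CBP 0 h against WT 0 h (13 and 7), equal numbers and 50% cover each gave 4 closed, and 10 kb gave 4 and 4. Without 1 library, opened and closed counts ran from 10 to 19 and 94 to 134 in CBP over time, 4 to 15 and 80 to 110 in WT over time, 20 to 33 and 19 to 33 between labels at 60 h, and 23 to 42 and 14 to 32 at 0 h; with 1 library a group, fewer calls are needed to count a region.

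The number of members passing limma was 1 in CBP over time, 0 in WT over time, 1 over both labels, 1 for CBP 60 h against WT 60 h, 0 for CBP 0 h against WT 0 h and 1 for the difference of the time effects. In that order, the deposited lists without centring gave 15, 17, 22, 0, 0 and 0; a −log10 q of at least 5 gave 18, 20, 27, 0, 0 and 0; centring each library gave 2, 0, 4, 0, 0 and 0; 50% cover gave 2, 0, 7, 1, 0 and 0; no minimum of regions gave 1, 1, 2, 2, 0 and 2; links within 10 kb gave 2, 2, 4, 1, 1 and 1; pooled spread, added after the data had been seen, gave 3, 3, 3, 2, 0 and 0. The counts over all genes moved with these: 443, 285 and 821 genes passed in CBP over time, WT over time and over both labels, against 3237, 4042 and 6300 without centring and 4093, 4739 and 7101 with a −log10 q of at least 5. Without 1 library the ranges were 1 to 3, 0 to 1, 0 to 3, 1 to 3, 0 to 1 and 0 to 3. An arcsine scale gave 0 for the difference of the time effects. With the replicate number as a block that count was also 0, and over all genes it went from 229 to 0. The ITGA4 difference remained 35 points (limma adjusted p = 0.0960). For CBP 0 h against WT 0 h the count over all genes went from 154 to 0. The deviations of same-numbered libraries correlated between -0.011 and 0.014 over genes. Such values cannot show whether same-numbered libraries share an animal or culture.

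Some member values turned round. Without centring and with a −log10 q of at least 5, LAMB1 was -12.5 and -16.7 points in CBP over time and -16.7 and -16.7 over both labels, ITGA5 was -8.33 and -20.8 in WT over time, and ITGB2 was -10 and -10 in WT over time. ITGB3 over both labels was -12.5 without centring and -2.08 with 50% cover. The causes were not tested.

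The lists give no reads, so depth could not be weighed, and 2 libraries per group leave each spread poorly known. Links by distance can assign a region to a gene it does not act on, and LAMA2 and ITGA9 have 32 and 24 regions inside the gene that were too far from its ends to count.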
